A study of Saccharomyces cerevisiae with 12 samples.

Results

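The arrays described here are the 8 of the 12 in the series that were hybridised with RNA from wild-type yeast cultured in medium already used by a slow-growing deletion strain, set against the 4 arrays from wild-type yeast in medium already used by wild-type cells. They were chosen by their labels alone: 2 arrays for each of the media used by cbf1, npl3, bur2 and cho2 deletion strains, and 2 for each of the wild-type media of 2 sets. Set 1 holds the cbf1 and npl3 media with their own wild-type medium, and set 2 holds the bur2 and cho2 media with another. The comparison asks whether a deletion strain leaves something in its medium, or takes something out of it, that alters transcript levels in healthy cells. Pooling the 4 media asks what they share.

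All the RNA came from BY4742, a MATalpha laboratory strain of Saccharomyces cerevisiae with no deletion of the genes under study. The medium, synthetic complete with 2% glucose, first carried a donor strain for 2 doublings, was filtered free of cells and then carried the wild-type cells for another 2. The donors lacked CBF1 (a helix-loop-helix protein of centromeres and of the methionine genes), NPL3 (a shuttling protein that binds mRNA and aids its splicing and export), BUR2 (a cyclin whose partner kinase Bur1 promotes transcription elongation) or CHO2 (the methyltransferase that starts the conversion of phosphatidylethanolamine into phosphatidylcholine). A common reference, also of wild-type RNA, was on every array, with the sample in Cy3 on the first array and in Cy5 on the second. The series speaks of independent cultures and the methods of dye-swapped biological replicates, so the arrays of a medium may be separate cultures or relabelled RNA. Counts of n are arrays, and the p-values measure the spread between arrays, which may be technical.

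Yeast reads its medium through a small number of well-studied circuits. Amino acid genes answer to Gcn4 and to pathway regulators such as Leu3, which senses an intermediate of leucine synthesis. Zinc and iron are watched by Zap1 and Aft1, sugars by the Rgt and Mig repressors, and weak acids and drugs by War1 and the Pdr factors. When growth slows, genes of the environmental stress response, with the trehalose and glycogen enzymes among them, go up while the genes that build ribosomes go down, and this is the pattern that slow-growing deletion strains have in common.

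The strain matched its labels where the arrays could show it. The alpha-specific transcripts MF(ALPHA)1, MF(ALPHA)2, STE3 and SAG1 were over 2 times background on all 12 arrays, the a-specific MFA2 and BAR1 on 0, and the deleted auxotrophic markers LEU2 and URA3 on 0. LYS2, also deleted, was over it on 4 arrays, and HIS3, which carries only an internal deletion in this strain, on 12. Some low signal of other a-specific genes was seen, with STE2 over that level on 9 arrays, MFA1 on 3 and STE6 on 1. Median sample signals ran from 185 to 507 fluorescence units, and 74.8% to 84.7% of gene spots were over 2 times background in both channels. Across gene probes, arrays of one medium in opposite dyes correlated at r = 0.667 to 0.817 (median 0.757), whereas arrays of different media in the same set and dye correlated at 0.814 to 0.962 (median 0.915). Arrays thus differed more between the dyes than between media. The array number within a medium coincides with the dye, so effects of the dye and of the replicate cannot be told apart. Both the dye and the set were terms of the fit.

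In the pooled comparison no transcript was told apart from the spread between arrays. Limma called 0 of 6388 gene probes (0%) at an adjusted p under 0.05, the smallest adjusted p being 0.999, and 213 probes (3.33%) had an unadjusted p under 0.05, where chance alone gives 319.4. Of these, 107 (1.68%) were higher and 106 (1.66%) were lower in the deletion-strain media. Differences are given as deletion-strain media minus wild-type media on the log2 scale. They were small, with a median absolute size of 0.018 and 95% of probes within 0.072. The median SE was 0.029. For 6275 probes (98.2%) the 95% interval lay within 1.2-fold in both directions, and for 6387 within 1.7-fold, the fold limit of the study, with ZRT1 the exception. Only 2 probes, ZRT1 and GPI18, had estimates beyond 1.2-fold, and 60 (0.939%) were beyond 1.1-fold. The offset used in the background correction draws the ratios of dim spots toward 0, so these intervals do not bound the real change of weak transcripts.

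A second view asked where all arrays lay on the same side. In 55 probes (0.861%) the 4 deletion-medium arrays of each set lay wholly above or wholly below the 2 wild-type arrays of that set, in the same direction in both sets, with 22 (0.344%) higher and 33 (0.517%) lower. With median centring of the arrays there were 27 such probes (18 higher and 9 lower), and 89 in the deposited log2 table (37 higher and 52 lower). The opposite direction in the 2 sets was found for 16 probes (0.25%). Arrays that differ only by noise also give probes without overlap. How many was not computed, so the 55 cannot be read as more than noise gives. Lack of overlap, here and below, therefore describes a gene and is not a test. The sets share no arrays, and their differences correlated across gene probes at r = 0.224, where genes are not independent replicates and probes share array and dye effects. Among the 55, 36 were over 2 times background on all 12 arrays, the median absolute difference was 0.061, and 2 were beyond 1.1-fold. Those 2 were OAC1 and LEU1, both of leucine metabolism.

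**Figure D1:**
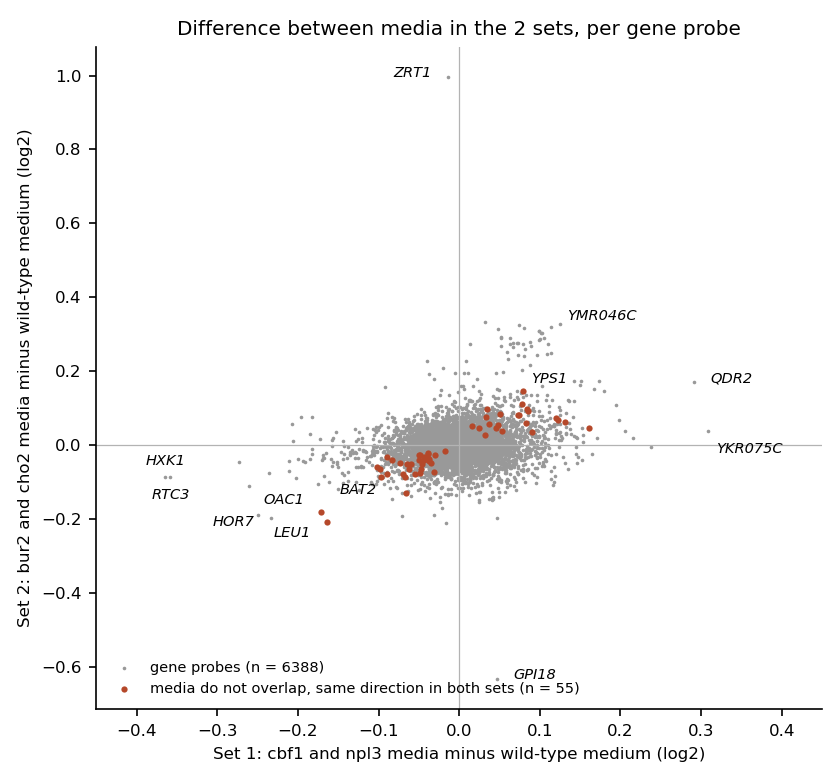
Each point is a gene probe, placed by its difference in set 1 (x axis, cbf1 and npl3 media minus wild-type medium, log2) and in set 2 (y axis, bur2 and cho2 media minus wild-type medium, log2). The 55 probes whose media do not overlap and run the same way in both sets are coloured. OAC1 and LEU1 lie farthest out among them, at -0.17 and -0.18 and at -0.16 and -0.21, while ZRT1 and GPI18 are far from 0 in set 2 only.

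OAC1 and LEU1 belong to the leucine branch of amino acid synthesis. This pathway starts in mitochondria, where the LEU4 and LEU9 synthases make alpha-isopropylmalate. OAC1 (YKL120W) encodes the carrier of the mitochondrial inner membrane that exchanges oxaloacetate, sulfate and alpha-isopropylmalate, and LEU1 (YGL009C) the cytosolic isomerase that takes that intermediate on. BAT2 (YJR148W) encodes the cytosolic branched-chain aminotransferase at the end of the route. BY4742 lacks LEU2, the dehydrogenase that follows LEU1, so these cells cannot complete the branch and draw their leucine from the medium.

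Values per array are log2 ratios of sample over reference from which the fitted dye term has been taken away. OAC1 in set 1 stood at 0.0074 and 0.090 in cbf1 medium and 0.076 and -0.0081 in npl3 medium, against 0.10 and 0.32 in wild-type medium. In set 2 it stood at -0.085 and -0.22 in bur2 medium and -0.071 and -0.19 in cho2 medium, against 0.020 and 0.057 in wild-type medium. All 8 deletion-medium arrays were thus below both wild-type arrays of their set, and the wild-type arrays of set 1 were themselves 0.10 and 0.32, far apart. The pooled difference was -0.18 ± 0.043 (SE, n = 8 and 4 arrays, here and below), with a 95% interval of -0.27 to -0.081 and an adjusted p of 0.999 (limma). By medium it was -0.16 for cbf1, -0.18 for npl3, -0.19 for bur2 and -0.17 for cho2, a narrow range.

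LEU1 gave 0.31 and 0.21 in cbf1 medium and 0.24 and 0.29 in npl3 medium, against 0.32 and 0.53 in wild-type medium in set 1. In set 2 it gave 0.13 and 0.087 in bur2 medium and 0.27 and 0.27 in cho2 medium, against 0.45 and 0.35 in wild-type medium. Again no deletion-medium array reached the lower wild-type array of its set, although in set 1 the gap was as small as 0.31 in cbf1 medium against 0.32 in wild-type medium. The pooled difference was -0.19 ± 0.048, 1.14-fold lower, with an interval of -0.29 to -0.082 and an adjusted p of 0.999 (limma). It was -0.29 in bur2 medium and between -0.17 and -0.13 in the other media.

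BAT2 stood at -0.18 and -0.18 in cbf1 medium and -0.25 and -0.20 in npl3 medium, against -0.063 and -0.15 in wild-type medium in set 1. In set 2 it was at 0.068 and 0.0089 in bur2 medium and 0.061 and 0.15 in cho2 medium, against 0.16 and 0.16 in wild-type medium. The groups did not overlap in either set, and the pooled difference was -0.093 ± 0.028 (adjusted p = 0.999, limma), with -0.097 in set 1 and -0.088 in set 2. Its level relative to the reference differed more between the sets than between media.

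**Figure D2:**
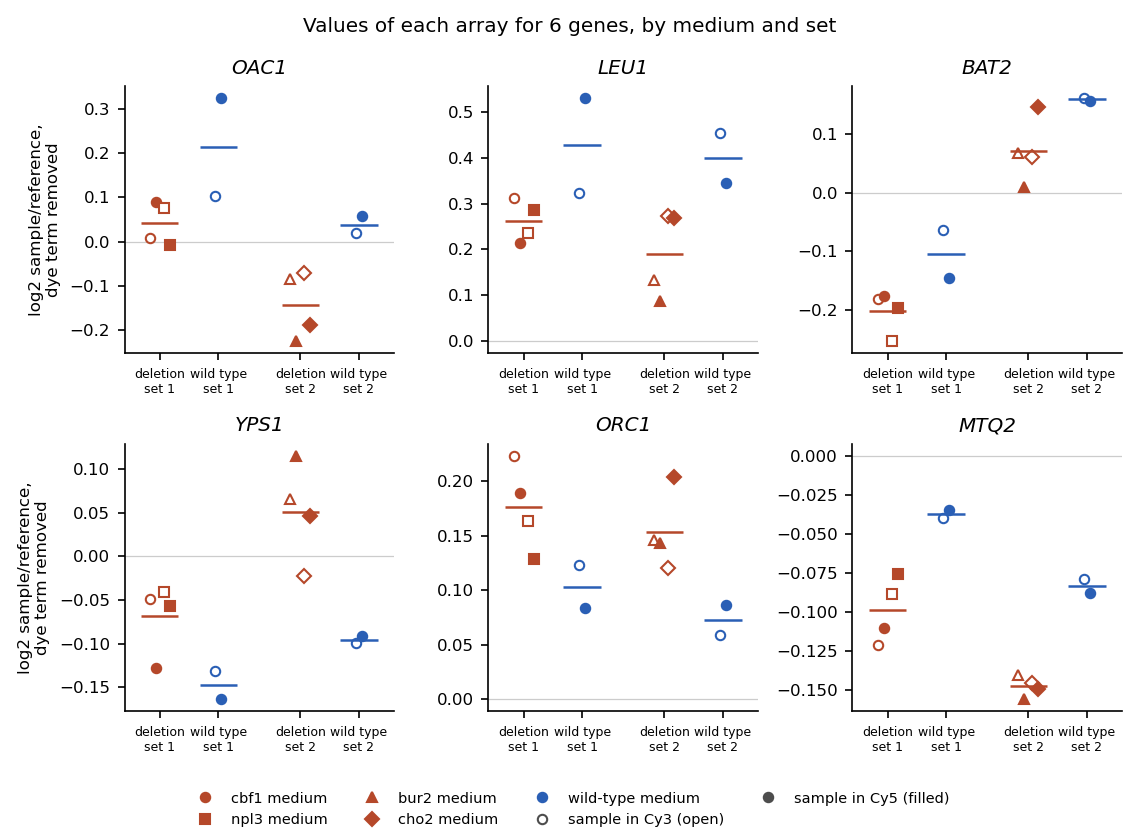
Log2 sample over reference of each array, with the dye term removed (y axis), for 6 genes. Within each set the deletion-strain media (red, symbol by donor strain) stand left of the wild-type medium (blue). Open symbols have the sample in Cy3, filled ones in Cy5, and bars are means of 4 and 2 arrays. OAC1, LEU1, BAT2 and MTQ2 lie below both wild-type arrays on all 4 deletion-medium arrays of each set, and YPS1 and ORC1 above them.

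The rest of the branched-chain pathway stayed near 0. Of the 13 genes of that list, 6 were higher and 7 lower, 0 were called and 3, the genes above, were lower at an unadjusted p under 0.05, as were 1.66% of all probes. The list median was -0.014, beside -0.00053 over all probes. LEU9, the minor isopropylmalate synthase, had 0.042 ± 0.025, while LEU4, the major one, had -0.018 ± 0.045. LEU3, the zinc-cluster regulator of the branch, had 0.0097 ± 0.020. The shared isoleucine and valine enzymes were at 0.017 (ILV1, threonine deaminase), 0.0098 and -0.022 (ILV2 and ILV6, acetolactate synthase and its regulatory subunit), 0.0088 (ILV5, the reductoisomerase) and 0.0050 (ILV3, the dehydratase). BAT1, the mitochondrial aminotransferase, had -0.028 ± 0.042, and the deleted LEU2, at background on all arrays, had -0.014. The values of ILV2, ILV3, ILV5 and LEU2 changed sign with median centring of the arrays, and those of ILV1, ILV6, LEU3, LEU4 and BAT1 in other alternatives, so the signs of these 9 genes, and the split of 6 and 7, are not stable. Apart from OAC1, LEU1 and BAT2 the absolute differences were at most 0.042. The list was put together with earlier results for OAC1 and LEU1 known.

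**Figure D3:**
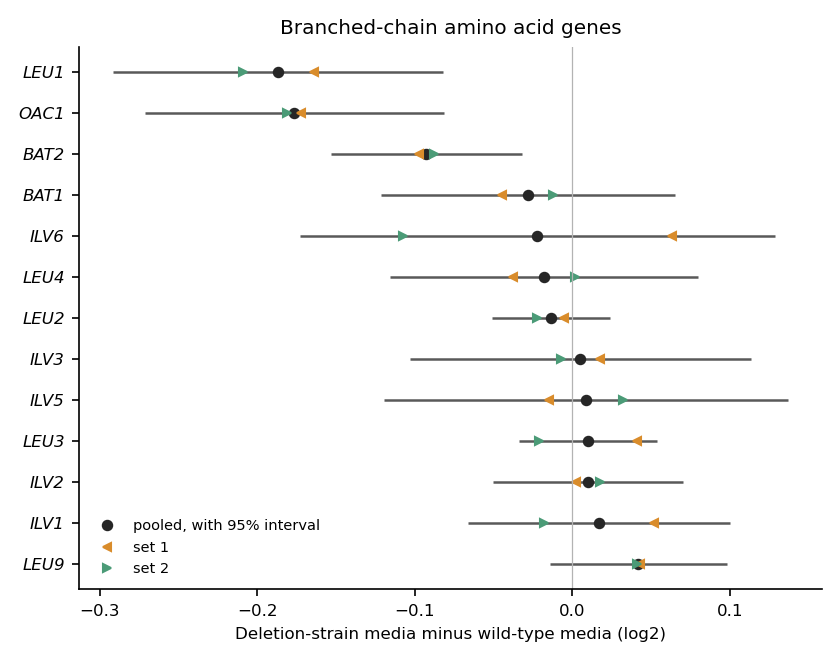
Pooled difference (black, with its 95% interval) and the differences of set 1 and set 2 (triangles) for the 13 genes of branched-chain amino acid synthesis (x axis, deletion-strain media minus wild-type media, log2). The intervals of LEU1, OAC1 and BAT2 lie below 0, before any adjustment for the 6388 probes, and those of the other 10 genes include 0.

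Neighbouring pathways of nitrogen metabolism showed single genes rather than a common shift. TRP1, of tryptophan synthesis, had -0.056 ± 0.021 and did not overlap between media in either set, with the second cbf1 array and the second wild-type array nearly equal in set 1. GDH1, the NADP-dependent glutamate dehydrogenase, had -0.061 ± 0.025, ARG3, ornithine carbamoyltransferase, -0.077 ± 0.035, and MET6, methionine synthase, -0.079 ± 0.032. ARG3 was at -0.035 without the first and MET6 at -0.048 without the second wild-type array of set 1. AGP1, a broad-range amino acid permease, had -0.066 ± 0.023. The lists behind them had medians close to that of all probes: arginine and lysine synthesis had a median of -0.018 (6 higher and 9 lower of 15 probes), sulfur and methionine genes -0.0072 (9 and 18 of 27), other amino acid synthesis 0.0021 (19 and 15 of 34) and amino acid permeases 0.0063 (14 and 8 of 22).

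Among genes higher in the deletion-strain media, YPS1 (YLR120C), a glycosylphosphatidylinositol-anchored aspartyl protease of the cell surface that is induced by cell wall stress, had the smallest p. In set 1 it gave -0.049 and -0.13 in cbf1 medium and -0.041 and -0.056 in npl3 medium, against -0.13 and -0.16 in wild-type medium. In set 2 the values were 0.066 and 0.12 in bur2 medium and -0.022 and 0.046 in cho2 medium, against -0.099 and -0.091 in wild-type medium. The groups did not overlap in either set, although the second cbf1 array and the first wild-type array of set 1 were nearly equal. Its pooled difference was 0.11 ± 0.028 (interval 0.050 to 0.18, adjusted p = 0.999, limma), the highest single medium being bur2 at 0.19. The cell wall and cell integrity list to which it belongs had 15 of 30 probes higher and 15 lower and a median of 0.0035. GAS3, of a family of glucan-remodelling enzymes, had -0.054 ± 0.020.

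The other 14 named genes of smallest p on this side differed by 0.061 to 0.12. Genes of DNA replication were 2 of them: ORC1, the largest subunit of the origin recognition complex, had 0.077 ± 0.023 and MCM7, of the replicative helicase, 0.086 ± 0.026. ORC1 lay above the wild-type arrays on all 8 deletion-medium arrays. HEM3, porphobilinogen deaminase of haem synthesis, had 0.096 ± 0.028 and PRM4, a pheromone-regulated membrane protein, 0.071 ± 0.021, but both probes were over 2 times background on only 3 of 12 arrays. CDC55, a regulatory subunit of protein phosphatase PP2A, over 2 times background on 10 arrays, had 0.097 ± 0.028, which turned to -0.050 with median centring and to 0.64 with no offset in the background correction. ATP2, the beta subunit of the mitochondrial ATP synthase, had 0.061 ± 0.019, and MRP4, of the small mitochondrial ribosomal subunit, 0.071 ± 0.022. FCY21, a purine-cytosine permease, had 0.088 ± 0.027, and RDS1, a zinc-cluster protein, 0.11 ± 0.031. The names left were YIL108W, YKR073C, YGR035C, YGR054W and YML082W, at 0.078, 0.088, 0.12, 0.081 and 0.095.

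On the lower side, MTQ2 had the smallest p after OAC1. It encodes the methyltransferase that modifies the translation release factor eRF1. Set 1 gave -0.12 and -0.11 in cbf1 medium and -0.089 and -0.076 in npl3 medium, against -0.040 and -0.035 in wild-type medium. Set 2 gave -0.14 and -0.16 in bur2 medium and -0.15 and -0.15 in cho2 medium, against -0.079 and -0.088 in wild-type medium. No arrays overlapped, with a pooled difference of only -0.063 ± 0.016. PSK1, a PAS-domain kinase that steers sugar storage, had -0.082 ± 0.021, and MON2, of Golgi to endosome traffic, -0.066 ± 0.018. ARP2, of the Arp2/3 complex that nucleates branched actin, had -0.061 ± 0.018, and MSN1, a transcriptional activator of invertase and pseudohyphal growth genes, -0.073 ± 0.022. UBC12, which conjugates the ubiquitin-like Rub1, had -0.084 ± 0.026 and FMP48, a putative mitochondrial protein, -0.082 ± 0.024, on probes over 2 times background on 6 and 9 of the 12 arrays. BUD4, of bud site selection, had -0.085 ± 0.027, WSC4, a putative cell wall stress sensor, -0.10 ± 0.032, and AIM45, a mitochondrial flavoprotein subunit, -0.087 ± 0.023. ADD37 and UBX3 were at -0.076 and -0.068. All 15 of these genes, with OAC1, LEU1 and BAT2 among them, had an adjusted p of 0.999 (limma).

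Other genes without overlap in either set, picked out here for that reason after their values were seen, spread over many functions. On the higher side were SMB1, a core Sm protein of the spliceosome (0.046 ± 0.018), NSE4 of the Smc5/6 complex (0.054 ± 0.020), EMP70, an endosomal membrane protein (0.048 ± 0.020), and GIS3 and RBS1 (0.094 ± 0.032 and 0.068 ± 0.022). On the lower side were SNF4, the activating subunit of the Snf1 kinase (-0.061 ± 0.023), ADH3, the mitochondrial alcohol dehydrogenase (-0.058 ± 0.022), SEC8 of the exocyst (-0.098 ± 0.037), DTD1, which removes D-amino acids from tRNA (-0.060 ± 0.022), CAB4 of coenzyme A synthesis (-0.053 ± 0.019) and CMC1, a mitochondrial copper protein (-0.055 ± 0.020). Also lower were GYP1, a GTPase-activating protein of Golgi traffic (-0.042 ± 0.016), DNL4, the DNA ligase of end joining (-0.042 ± 0.017), and FOL3 of folate synthesis (-0.040 ± 0.017). The FOL3 probe was over 2 times background on 0 arrays, that of DNL4 on 7 and that of NSE4 on 8. Of the 55 probes 7 had no gene name, SCAB002074 among them at -0.063.

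The largest estimates came from few arrays. ZRT1, the high-affinity zinc transporter of the plasma membrane and a target of Zap1, stood at 3.27 and 0.78 in bur2 medium and -0.14 and 0.097 in cho2 medium, against -0.19 and 0.21 in wild-type medium. In set 1 it stood at -0.37 and 0.071 in cbf1 medium and -0.33 and -0.19 in npl3 medium, against -0.82 and 0.45 in wild-type medium. The pooled difference of 0.49 ± 0.55 rested on the first array of bur2 medium, without which it was 0.061. GPI18, a mannosyltransferase of GPI anchor synthesis, had -0.29 ± 0.18, from -0.078 and 0.043 in bur2 medium and -0.14 and -0.028 in cho2 medium, against 1.08 and 0.087 in wild-type medium. A single array, the first of wild-type medium in set 2, was high there. Without that array the value was 0.016.

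Zinc genes as a list had 9 of 13 probes higher, a median of 0.039 and 0 called. ZRT3, which releases zinc from the vacuole, had 0.088 ± 0.062, and ZRG17, of zinc delivery to the endoplasmic reticulum, 0.062 ± 0.031. ZRT3 was at 0.043 without the first bur2 array, and ZRG17 at 0.039 without the second wild-type array of set 2. By medium the list medians were 0.021 for cbf1, 0.0082 for npl3, 0.092 for bur2 and -0.025 for cho2. Without bur2 medium the pooled median was -0.0040, and without the first bur2 array 0.0077. The Aft1 iron regulon had 23 of 30 probes lower and a median of -0.021, with -0.081 in cbf1 medium and 0.027 in npl3 medium. Its smallest p values belonged to the siderophore transporter gene ENB1 (-0.083 ± 0.050) and to VHT1, the biotin transporter gene (-0.031 ± 0.020). Next were ISU2 (-0.060 ± 0.039) and SIT1, also a siderophore transporter gene (-0.13 ± 0.090). With the first wild-type array of set 1 left out ENB1 was at -0.038, and SIT1 stood at -0.087 without the first cbf1 array. Without cbf1 medium the iron median was 0.0033.

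Transporters that pump out drugs and acids included some of the higher values. QDR2, a proton antiporter of the plasma membrane, had 0.23 ± 0.078. Set 1 gave -0.24 and -0.34 in cbf1 medium and -0.12 and -0.072 in npl3 medium, against -0.40 and -0.57 in wild-type medium. Set 2 gave 0.16 and 0.14 in bur2 medium and -0.17 and -0.13 in cho2 medium, against -0.27 and -0.063 in wild-type medium. In set 1 all deletion-medium arrays were above the wild-type arrays, and in set 2 the cho2 arrays lay among the wild-type arrays. PDR12, the efflux pump for weak organic acids, had 0.17 ± 0.071, with 0.55 and 0.45 in cbf1 medium and 0.88 and 0.76 in npl3 medium, against 0.37 and 0.61 in wild-type medium in set 1. In set 2 PDR12 stood at 0.74 and 0.76 in bur2 medium and 0.80 and 0.77 in cho2 medium, against 0.61 and 0.58 in wild-type medium. There all 4 deletion-medium arrays were above the wild-type arrays, whereas in set 1 those of cbf1 medium lay between them. ATR1, which exports aminotriazole and boron, had 0.063 ± 0.023 and no overlap in either set. The 21 probes of the drug efflux list were 14 higher and 7 lower, with a median of 0.0068, 0 called and these 3 at an unadjusted p under 0.05 on the higher side, where 1.68% of all probes were.

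Retrotransposon reading frames made up 4 of the 10 named probes with the largest positive differences. YDR170W-A had 0.23 ± 0.074, YMR046C 0.22 ± 0.078, YDR210C-C 0.20 ± 0.086 and YNL284C-A 0.18 ± 0.064, and each encodes the Gag protein of a Ty element. Ty copies are nearly identical in sequence, so one probe can take up transcripts of many copies and the 4 are not independent. YDR170W-A stood at 0.99 and 1.08 in bur2 medium and 0.96 and 0.75 in cho2 medium, against 0.75 and 0.49 in wild-type medium in set 2. In set 1 it stood at 0.34 and 0.34 in cbf1 medium and 0.25 and 0.46 in npl3 medium, against 0.13 and 0.31 in wild-type medium. Its groups overlapped in both sets, through the second cho2 array in set 2 and the first npl3 array in set 1. The differences were largest in bur2 medium, at 0.42 for YDR170W-A, 0.45 for YMR046C, 0.47 for YDR210C-C and 0.30 for YNL284C-A. A further probe of YMR046C, at background on all arrays, had 0.031 ± 0.026. Outside this group, RTC4, of uncertain role, had 0.17 ± 0.060, YHB1, the flavohaemoglobin that detoxifies nitric oxide, 0.16 ± 0.10, and YKR075C 0.17 ± 0.15, with 0.61 in cbf1 medium. With single arrays left out YHB1 ranged from 0.042, without the first wild-type array of set 1, to 0.27, without the second, and YKR075C was at -0.0053 without the second. Without the second wild-type array of set 2, YDR170W-A was at 0.14 and YNL284C-A at 0.11.

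The slow-growth pattern was looked for in lists of stress and growth genes chosen with earlier results of these data known. The study's own slow growth signature over all transcripts was not used. Stress-induced genes were lower, not higher, in the deletion-strain media by count: 31 of 36 probes, with a list median of -0.062, against 50.7% of all gene probes. Of the 19 trehalose and glycogen probes 18 were lower, with a median of -0.069. Ribosome biogenesis genes were higher in 88 of 94 probes, against 49.3% of all probes, with a median of 0.033, and RNA polymerase I and III genes in 18 of 24, with a median of 0.018. Limma called 0 members of these lists, and 7 of the 94 ribosome biogenesis probes were higher at an unadjusted p under 0.05, as were 1.68% of all probes. Genes of cytosolic ribosomal proteins did not share the shift, with 52 probes higher, 73 lower and a median of -0.0071, which became -0.036 (109 of 125 lower) with median centring of the arrays. No p-value was computed for a list.

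The shifts were larger in set 1 than in set 2. Stress-induced genes had a median of -0.093 in set 1 and -0.028 in set 2, and ribosome biogenesis genes 0.067 in set 1 and 0.010 in set 2. In set 2 alone 27 of the 36 stress-induced and 14 of the 19 trehalose and glycogen probes were lower (median -0.020 for the second list), 49 of the 94 ribosome biogenesis probes were higher, and 10 of the 24 polymerase probes were higher (median -0.012). For the stress list the array medians of log2 sample over reference were -0.16 and -0.15 in cbf1 medium and -0.30 and -0.18 in npl3 medium, against 0.0075 and -0.23 in wild-type medium. In set 2 they were 0.0067 and 0.026 in bur2 medium and 0.017 and 0.023 in cho2 medium, against 0.016 and 0.049 in wild-type medium. Of the wild-type arrays of set 1, the first was thus above all 4 deletion-medium arrays, and the second was below all of them but the first npl3 array.

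Ribosome biogenesis genes mirrored this, with array medians of 0.36 and 0.32 in cbf1 medium and 0.46 and 0.31 in npl3 medium, against 0.20 and 0.39 in the wild-type medium of set 1. In set 2 the array medians were 0.19 and 0.21 in bur2 medium and 0.22 and 0.25 in cho2 medium, against 0.24 and 0.18 in wild-type medium, so the groups overlapped. Without the first npl3 array the stress median was -0.033. Without the first wild-type array of set 1 the stress median became 0.014 (13 of 36 lower), the trehalose and glycogen median 0.012 (8 of 19 lower), the ribosome biogenesis median -0.0083 (37 of 94 higher) and the polymerase median -0.032 (7 of 24 higher). The pooled medians of all 4 lists thus changed sign without that array. In set 2, which does not hold it, the stress, trehalose and ribosome biogenesis medians had the pooled sign and the polymerase median did not. By medium, the ribosome biogenesis median there was -0.015 for bur2 and 0.021 for cho2, of opposite sign. The stress and trehalose medians were below 0 for both. What set that array apart was not tested.

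**Figure D4:**
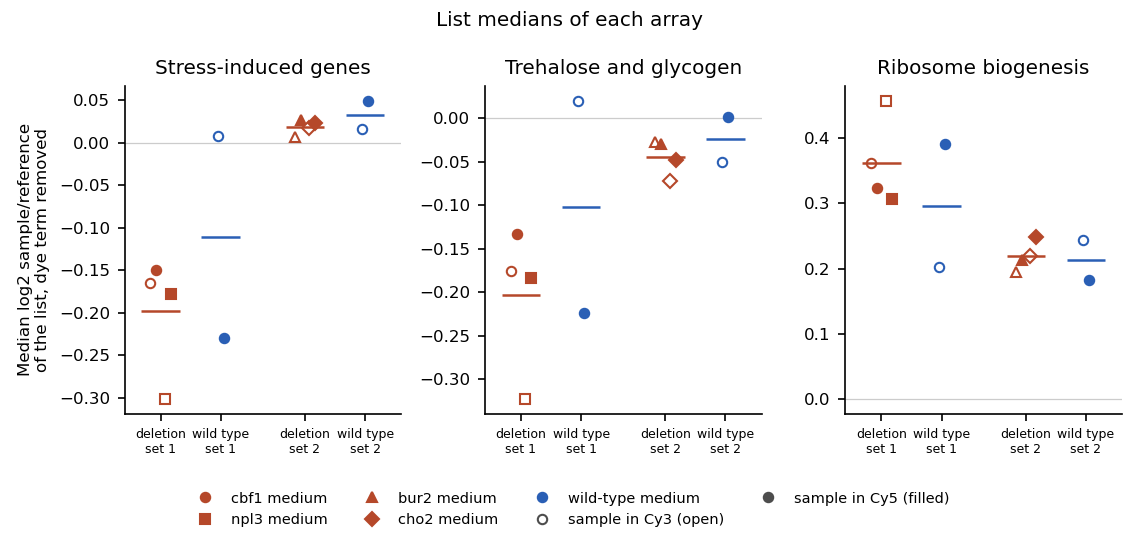
Median log2 sample over reference of 36 stress-induced, 19 trehalose and glycogen and 94 ribosome biogenesis probes on each array, dye term removed (y axis), with colours, symbols and bars as in the plot of 6 genes. The wild-type arrays of set 1 lie far apart in each panel, at 0.0075 and -0.23, 0.020 and -0.22 and 0.20 and 0.39, and the groups of set 2 overlap.

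Single stress genes had the same feature. HXK1, a hexokinase induced when glucose runs low, had -0.23 ± 0.19, from -0.37 and -0.35 in cbf1 medium and -1.19 and -0.61 in npl3 medium, against 0.27 and -0.80 in wild-type medium in set 1. The other large negative differences were those of RTC3 (-0.22 ± 0.14), the membrane chaperone gene HSP12 (-0.22 ± 0.18), the mitochondrial disaggregase gene HSP78 (-0.19 ± 0.13), TSL1 of trehalose synthase (-0.16 ± 0.12) and PGM2, phosphoglucomutase (-0.16 ± 0.11). Without the first wild-type array of set 1 the differences of HXK1, HSP78, TSL1 and PGM2 turned to 0.043, 0.0029, 0.034 and 0.0050, and those of HSP12 and RTC3 shrank to -0.00015 and -0.021. Without the second wild-type array of set 1, HSP12 and RTC3 were at -0.42 and -0.35.

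HOR7, a plasma membrane protein induced by osmotic stress, and SPI1, a cell wall protein of stationary phase, were steadier between the sets. Their pooled differences were -0.22 ± 0.077 and -0.13 ± 0.043. HOR7 was at -0.23 in set 1 and -0.20 in set 2, and SPI1 at -0.15 and -0.12. Before the dye term was taken away, the first cho2 array of SPI1, at 0.40, lay between its wild-type arrays of set 2, at 0.37 and 0.50. For HOR7 set 1 gave 0.033 and 0.31 in cbf1 medium and -0.16 and 0.051 in npl3 medium, against 0.40 and 0.19 in wild-type medium. Set 2 gave 0.38 and 0.23 in bur2 medium and 0.50 and 0.40 in cho2 medium, against 0.59 and 0.56 in wild-type medium. In set 2 its groups did not overlap, but in set 1 the second cbf1 array lay between the wild-type arrays. With single arrays left out it ranged from -0.26 to -0.17. YAK1, a kinase that restrains growth, had -0.097 ± 0.042, GRE3, an aldose reductase, -0.11 ± 0.057, GLC3, the glycogen branching enzyme, -0.099 ± 0.041, and NTH2, a trehalase, -0.078 ± 0.039. Without the first wild-type array of set 1, GRE3, GLC3 and NTH2 were at -0.035, -0.057 and -0.027.

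Among ribosome biogenesis genes the smallest p values were those of CBF5, the pseudouridine synthase of box H/ACA particles (0.099 ± 0.035), NOB1, the nuclease that finishes the small-subunit rRNA (0.076 ± 0.027), RRP14 (0.079 ± 0.030) and NSA1 (0.085 ± 0.035), the last a factor of large-subunit assembly. CBF5 stood at 0.27 and 0.25 in cbf1 medium and 0.34 and 0.22 in npl3 medium, against 0.047 and 0.19 in wild-type medium in set 1. In set 2 it stood at 0.15 and 0.088 in bur2 medium and 0.060 and 0.10 in cho2 medium, against 0.048 and 0.063 in wild-type medium. The groups of set 1 did not overlap, and in set 2 the first cho2 array lay between the wild-type arrays. RRN3, which brings RNA polymerase I to the rDNA promoter, had 0.084 ± 0.036, and RPA49, a subunit of that polymerase, 0.078 ± 0.045. Without the first wild-type array of set 1, CBF5, RRP14, RRN3 and RPA49 were at 0.053, 0.047, 0.036 and 0.030. RPS2, a protein of the small ribosomal subunit, had -0.056 ± 0.024, or -0.026 without the second wild-type array of set 1.

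No other list of the 42 examined had a pooled median beyond 0.05 in either direction. Lists leaning lower were fatty acid synthesis and desaturation (-0.033, 8 of 12 lower), biotin (-0.031, 4 of 5), glycolysis and fermentation (-0.021, 13 of 18), core histones (-0.017, 8 of 9) and phospholipid and inositol genes (-0.014, 16 of 23). The fatty acid list had medians nearer 0 in the single sets, -0.014 in set 1 and -0.00081 in set 2. In the phospholipid and inositol list, OPI1, the repressor of inositol-regulated genes, had 0.094 ± 0.041, and PIS1, phosphatidylinositol synthase, -0.051 ± 0.022. Aryl-alcohol dehydrogenases (0.024, 4 of 6 higher) and pheromone response genes (0.014, 17 of 24) leaned higher, with SST2, the regulator that switches off the pheromone receptor's G protein, at 0.066 ± 0.027. Ergosterol genes had a median of -0.0018, with ERG26 at -0.059 ± 0.025 and ERG5 at -0.057 ± 0.025.

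Carbon, phosphate and cell cycle lists lay near the median of all probes, and several had medians whose sign changed with the scaling of the arrays. Glucose-repressed genes had a median of -0.0060, hexose transporters and sensors 0.011, phosphate genes -0.00078, thiamine genes -0.0017, nitrogen-catabolite-repressed genes -0.0028, G1/S genes 0.00032, heat shock chaperones -0.0075 and the proteasome -0.0016. In a bulk culture, fewer cells in a cell cycle phase and less RNA per cell cannot be told apart. Respiratory chain genes had -0.012 and mitochondrial ribosomal proteins -0.00051, where RSM24 had 0.050 ± 0.019. RTG1, a regulator of the retrograde response from mitochondria to nucleus, had 0.066 ± 0.025, and HEM1, which starts haem synthesis, 0.072 ± 0.039. Of the 42 list medians, 12 kept their sign with every single array left out.

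**Figure D5:**
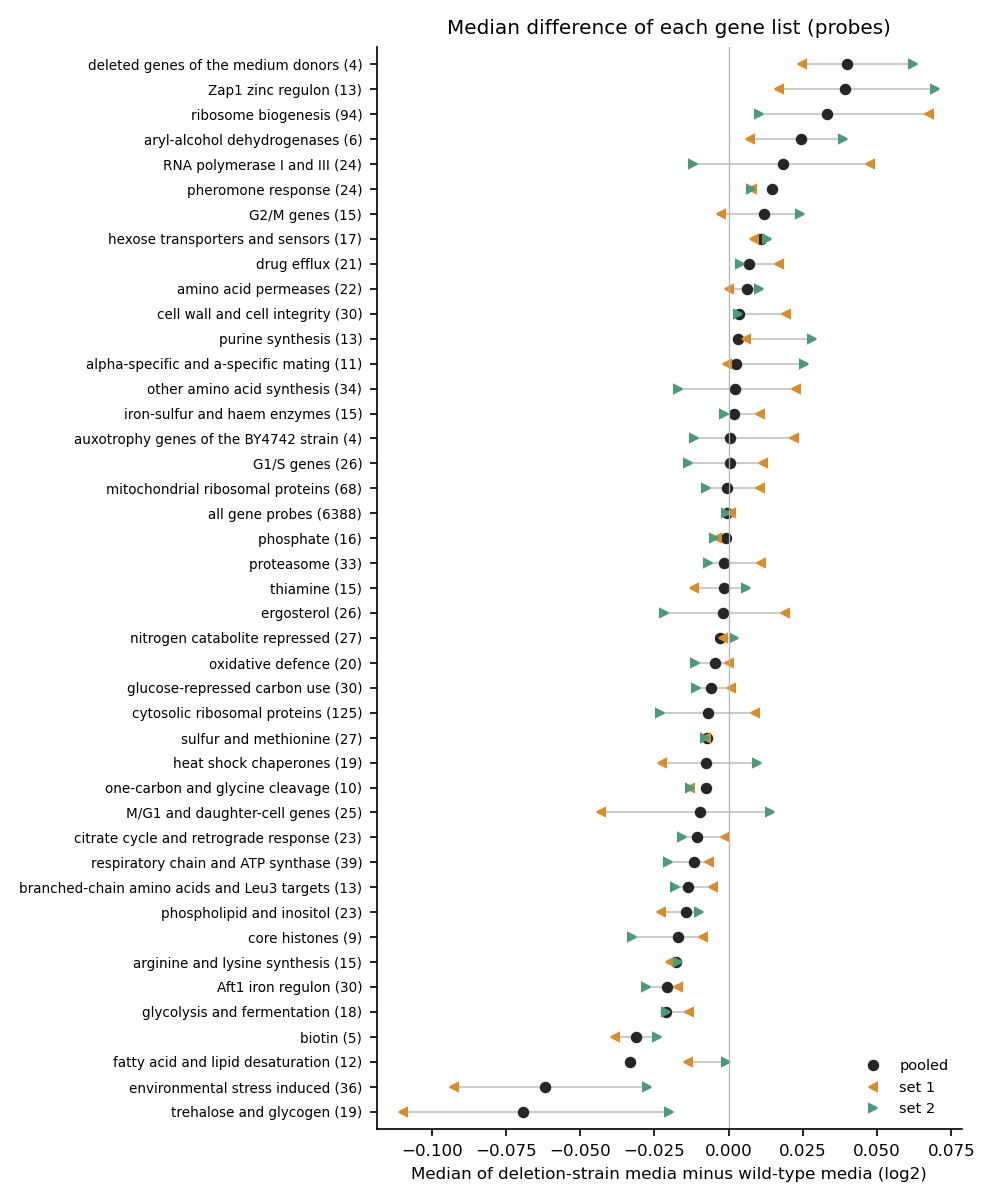
Median difference (x axis, deletion-strain media minus wild-type media, log2) of each gene list, with the number of probes in brackets, for the pooled comparison (black) and for set 1 and set 2 (triangles). Trehalose and glycogen and stress-induced genes lie lowest, at -0.069 and -0.062, with set 1 farther from 0 than set 2.

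The genes deleted in the donors were intact in the cells measured. NPL3 had 0.11 ± 0.041, BUR2 0.061 ± 0.046, CBF1 0.018 ± 0.021 and CHO2 -0.0048 ± 0.033, each with an adjusted p of 0.999 (limma). In set 1 NPL3 gave 0.0050 and 0.061 in cbf1 medium and 0.10 and 0.11 in npl3 medium, against -0.056 and -0.056 in wild-type medium. In set 2 it gave 0.20 and 0.17 in bur2 medium and -0.0014 and -0.012 in cho2 medium, against 0.010 and -0.021 in wild-type medium, so that cho2 medium alone lay among the wild-type arrays. These values check no label, because the sample strain was wild type throughout.

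Whether the pooled difference was the same in both sets was tested as an interaction. The sets hold media of different donors, so effects of the set and of the donors cannot be told apart here. The median SE of this test was 0.060, beside 0.029 in the pooled comparison. Limma's count of calls was 0 of 6388 probes (0%), the smallest adjusted p was 0.9995, and 46 probes (0.72%) were at p under 0.05 before adjustment. The named genes of smallest p were MIG3, a glucose-regulated repressor (0.14 in set 1 and -0.066 in set 2), GLT1, glutamate synthase (0.081 and -0.10), RRP9 of the U3 particle (0.10 and -0.053), RPC17 of RNA polymerase III (0.13 and -0.050) and YNR064C (-0.076 and 0.028), all of opposite sign in the sets. The pooled difference of RPC17 turned to -0.35 with no offset in the background correction, and that of YNR064C, at background on all arrays, to 0.0021 with median centring. Without the second wild-type array of set 2, 1 probe was called, GPI18 (difference between sets -1.28, adjusted p = 0.000892, limma). Its wild-type medium of set 2 is then the 1 array at 1.08, assumed to vary like the others, so the call carries no information beyond that array.

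The media of a set were then compared with each other, in a fit where the wild-type arrays enter only through the dye term and the residual spread. Again 0 of 6388 probes (0%) passed in limma, while 299 (4.68%) were at p under 0.05 before adjustment, and 0.137 was the smallest adjusted p. That p was shared by TIS11, which destabilises mRNAs of iron-using proteins, and SIT1. For TIS11 cbf1 minus npl3 medium was -0.39 and bur2 minus cho2 medium -0.0073, and for SIT1 -0.47 and 0.0059. SIT1 was called when either wild-type array of set 1 was left out, with the same estimates of -0.47 and 0.0059. Both cases are the same fit, because the array that remains is matched exactly by its own medium mean. Only the residual spread changes there, so the call adds no information about SIT1. Next came MTD1, of one-carbon metabolism (0.24 and -0.24), MTH1, a repressor of hexose transporter genes (0.26 and -0.036) and NPL3 (-0.072 and 0.19). TIS11 and SIT1 were thus lower in cbf1 medium than in npl3 medium by estimate, and the pooled differences average such values.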

How the data were processed

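RNA of wild-type yeast from 6 media was hybridised on 12 two-colour arrays, 2 per medium with the dyes exchanged. The deposited scanner files hold spot intensity values that the authors had only quantified. The deposited log2 table came from the authors' print-tip loess (span 0.4, limma 2.12.0 in the submitters' processing notes) without background subtraction and with a gene-specific dye correction. Its column for the first cho2 array ran as reference over sample (r = -0.913 with the scanner ratios) and was turned, and the table served only as an alternative. The authors' table of comparisons (log2 ratios and adjusted p-values) was not used.

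From the intensities, ratios were computed in R 4.3.3 with limma 3.58.1: normexp background correction with an offset of 50, loess within each array over 12776 gene spots with 2776 control spots at weight 0, ratios turned to sample over reference by the labelled dyes, and the 2 spots of each of 6388 probes averaged. The model held pool, set and dye, and p-values were adjusted by Benjamini and Hochberg over all 6388 probes with a limit of 0.05. Further fits tested pool by set and media within a set. The fits, but not the normalisation, were tried on simulated log2 ratios. The simulated noise was independent between probes and arrays, so shifts shared by many genes of an array were not part of it. On arrays the number of arrays limits the precision. Gene names came from the files for 5326 probes, 5320 of which were found in the reference table, and 1062 had none. Of the symbols, 54 were updated and 11 stood on several probes.

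Named were the 15 named genes of smallest p and the 10 of largest difference on each side, the donors' deleted genes, up to 4 members of each list by smallest p, all members of the branched-chain list, the 5 named genes of smallest p in each further test, and at most 2 unnamed probes on each side. The text gives a subset of list members. The members and the gene lists were chosen with earlier results of these data known. Alternatives covered background correction, normalisation, dim probes, the dye term, blocks by medium and replicate number, single sets and dyes, and each array and medium left out.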

Additional observations from a re-analysis of the deposited data

Results flagged for a closer look

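For 103 probes of genes named in the text and 9 gene lists, the values of the 8 deletion-medium arrays and of the 4 wild-type-medium arrays were examined for single arrays far from the rest, after the dye and set terms had been taken out. In 24 of the 224 groups examined the gap to the nearest other array exceeded Dixon's critical value. Chance gives about 1 in 20, or 11.2, only for independent groups that were not selected. Many of these genes were named for extreme values in the same data, and list medians share members with single genes. The deletion-medium group also holds different media, so the 24 cannot be read as an excess over chance. Values below are log2 sample over reference, each followed by that of the nearest other array of its group.

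Array 1 of npl3 medium stood apart from the other deletion-medium arrays for PGM2 (-0.54, nearest -0.25), TSL1 (-0.73, nearest -0.42), RTC3 (-0.84, nearest -0.53), NTH2 (-0.24, nearest -0.13), HXK1 (-0.77, nearest -0.22), GRE3 (-0.38, nearest -0.26), the list median of environmental stress induced (-0.20, nearest -0.10), the list median of trehalose and glycogen (-0.22, nearest -0.12) and the list median of ribosome biogenesis (0.39, nearest 0.30). Array 1 of bur2 medium stood apart from the other deletion-medium arrays for ZRT1 (2.83, nearest 0.51), ZRT3 (0.21, nearest 0.0037) and the list median of Zap1 zinc regulon (0.18, nearest 0.038). Array 2 of bur2 medium stood apart from the other deletion-medium arrays for LEU4 (0.23, nearest 0.11) and RTG1 (0.31, nearest 0.25). Array 2 of cbf1 medium stood apart from the other deletion-medium arrays for VHT1 (0.57, nearest 0.62). Array 2 of npl3 medium stood apart from the other deletion-medium arrays for WSC4 (-0.27, nearest -0.15). Array 2 of cho2 medium stood apart from the other deletion-medium arrays for PSK1 (-0.094, nearest -0.15). Array 1 of wild-type medium set 2 stood apart from the other wild-type-medium arrays for PRM4 (-0.16, nearest -0.18), NPL3 (-0.0049, nearest -0.036) and YMR046C (0.026, nearest 0.076). Array 1 of wild-type medium set 1 stood apart from the other wild-type-medium arrays for NSA1 (0.13, nearest 0.20) and CBF5 (-0.020, nearest 0.12). Array 2 of wild-type medium set 1 stood apart from the other wild-type-medium arrays for TRP1 (0.064, nearest 0.089) and MET6 (0.071, nearest -0.019).

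Array 1 of npl3 medium thus held 9 of the 24, 6 of them single genes of the stress response or of storage carbohydrates, and array 1 of bur2 medium held 3, ZRT1, ZRT3 and the zinc list. What set these arrays apart was not tested.

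For MIG3 and GLT1 all 4 deletion-medium arrays lay above the wild-type arrays in one set and below them in the other, as for 16 of 6388 probes (0.25%). The set 2 difference minus the set 1 difference was -0.20 for MIG3 and -0.18 for GLT1, and limma's test of that difference called neither.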

How the results depend on the processing

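Limma called 0 probes in the pooled comparison under all 33 alternatives. The counts at an unadjusted p under 0.05 were 66 with median centring, 81 without the dye term, 141 of 4791 probes with the darkest 25% left out, 321 and 334 with the sample in Cy3 only and in Cy5 only, 347 with the medium as a random block, 134 without npl3 medium and 422 without cho2 medium, and 149 to 346 with single arrays left out, beside 213. The smallest adjusted p was 0.514, with 1 value per medium. With the replicate number as a block within each set, 0 probes were called (297 unadjusted, smallest adjusted p 0.983), and the block changed no call of the other tests. Within a set, same-numbered arrays deviated together at r = -0.468 to 0.54 once the dye mean was removed. The number coincides with the dye, so removing that mean also takes out any effect of the number that all media share. The check therefore cannot decide whether the numbers pair the samples, and they were not taken to do so.

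Groups without overlap in both sets numbered 27 with median centring (18 higher and 9 lower) and 89 in the deposited log2 table (37 and 52), beside 55. These counts were added after the data had been seen. With single arrays left out, the test of the sets called only GPI18, when its wild-type medium of set 2 was 1 outlying array. The test among media called only SIT1, when either wild-type array of set 1 was left out, and both cases are the same fit. Median centring moved the median difference of all probes to 0.011, and it lay between -0.0011 and 0.00079 under the other alternatives.

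Of 103 probes of named genes, 74 kept their sign under all alternatives and 83 with every array left out. Of the 42 list medians, 12 kept their sign with every array left out. For the genes that changed sign the pooled differences were as follows, and the cause was not tested. In the deposited log2 table, CHO2 was 0.0023. With loess per print tip, MTH1 was 0.000047. With median centring, ILV3 was -0.011, CDC55 -0.050, TIS11 0.019, ILV5 -0.018, ILV2 -0.0043, MTH1 0.022, LEU2 0.020 and YNR064C 0.0021. With no offset, RPC17 was -0.35. With the sample in Cy3 only, ILV6 was 0.013, BUR2 -0.011, TIS11 0.015, GLT1 0.011, ILV2 -0.021, BAT1 0.0053 and LEU2 0.010. With the sample in Cy5 only, LEU3 was -0.0020, PGM2 0.062, HSP12 0.091, LEU4 0.023, ZRT1 -0.14, TSL1 0.043, RTC3 0.030, CHO2 0.018, HXK1 0.081, ILV5 -0.063, HSP78 0.088, ILV1 -0.047, RRP9 -0.0070 and MTH1 0.0076. In set 1 alone, ILV6 was 0.063, GPI18 0.047, ZRT1 -0.014, GLT1 0.081 and ILV5 -0.015. In set 2 alone, ILV3 was -0.0072, LEU3 -0.021, LEU4 0.0015, RPC17 -0.050, MIG3 -0.066, TIS11 0.029, CHO2 0.030, ILV1 -0.018, RRP9 -0.053, MTH1 0.027, YNR064C 0.028 and MTD1 0.0095. Without bur2 medium, ILV3 was -0.015, ZRT1 -0.019, GLT1 0.0025, ILV5 -0.042, ILV2 -0.011, ILV1 -0.0035 and MTH1 0.0036. Without cbf1 medium, TIS11 was 0.085 and CHO2 0.0028. Without cho2 medium, ILV6 was 0.036 and GLT1 0.0048. Without npl3 medium, MTH1 was 0.060 and MTD1 0.013. With single arrays left out, CHO2 ranged from -0.022 to 0.025, GLT1 from -0.036 to 0.028, GPI18 from -0.44 to 0.016, HSP78 from -0.33 to 0.0029, HXK1 from -0.41 to 0.043, ILV1 from -0.0022 to 0.056, ILV2 from -0.0086 to 0.033, ILV3 from -0.017 to 0.027, ILV5 from -0.021 to 0.046, ILV6 from -0.059 to 0.022, LEU3 from -0.0063 to 0.019, LEU4 from -0.057 to 0.032, MIG3 from -0.0080 to 0.064, MTH1 from -0.024 to 0.026, PGM2 from -0.27 to 0.0050, RPC17 from -0.00010 to 0.077, RRP9 from -0.0031 to 0.060, TIS11 from -0.037 to 0.035, TSL1 from -0.29 to 0.034 and YKR075C from -0.0053 to 0.28.

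The 2 wild-type arrays per set and the residual spread limited the power, and 1631 probes were under 2 times background on some array, where the offset draws ratios toward 0.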

Other observations

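Probes with no gene name made up 30 of the 41 probes (73.2%) with a difference over 0.2 on the log2 scale in set 2, but 16.6% of all gene probes. The limit of 0.2 was chosen after the values were seen. The 11 with a name were the Gag reading frames of Ty elements YDR170W-A, YDR210C-C, YMR046C, YNL284C-A and YPR158W-A, the reading frames YFL064C and YFL066C, the zinc transporter genes ZRT1 and ZRT2, STH1, the ATPase of the RSC chromatin remodeller, and RTC4. In set 1, which shares no arrays with set 2, all 30 unnamed probes had a positive difference, of 0.014 to 0.11 (median 0.076), where 50.9% of all probes had one.

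Over these 30 probes the median log2 sample over reference, dye term removed, was 1.08 and 1.38 on the bur2 arrays and 0.91 and 0.88 on the cho2 arrays, against 0.75 and 0.79 on the wild-type-medium arrays of set 2. In set 1 it was 0.54 and 0.38 on the cbf1 arrays and 0.56 and 0.56 on the npl3 arrays, against 0.50 and 0.37 on the wild-type-medium arrays. The median differences were 0.024 for cbf1, 0.13 for npl3, 0.44 for bur2 and 0.11 for cho2 medium. The probes were bright, with a median signal of 86.1 times background. Probes of one repeated sequence would not be independent, and the identity of these was not looked up.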
